A study of Mus musculus with 12 samples.

Results

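The transcripts described here carried an m6A peak in mature dendritic cells (maDC) and in neither immature dendritic cells (imDC) nor regulatory dendritic cells (DCreg). They were taken as every RefSeq transcript that occurred in the peak list of maDC and in neither of the other lists, and they are called maDC-alone transcripts. There were 1235 of them with 1649 peaks, of 9142 transcripts with 40978 peaks in all 3 lists, which is 13.5% of all listed transcripts and 15.3% of the 8050 transcripts with a maDC peak. List membership, and with it an enrichment that passed the threshold in both replicates, chose these transcripts, so their number and their enrichment are a description and carry no test. Of the 1235 transcripts, 1187 were annotated as protein-coding, 35 as long non-coding RNA and 13 as pseudogenes.

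The peaks came from meRIP-seq, in which fragments of polyadenylated RNA that an anti-m6A antibody pulls down (IP) are sequenced beside the fragments before the pull-down (input). maDC were C57BL/6 mouse bone marrow cells, from 6-week-old animals, that grew with GM-CSF (10 ng/ml) and IL-4 (1 ng/ml), had their medium changed on day 3, were selected on CD11c beads on day 5 and then received LPS at 100 ng/ml for 24 h. imDC were the same selected cells without LPS, and DCreg were maDC that stayed with spleen endothelial cells for a further 7 days. Each type had 2 replicates with 1 IP and 1 input library each, 12 libraries in all, and the marrow of several mice was pooled. The labels name no genotype beyond the C57BL/6 strain. All peaks of a type stand in 1 list called on both replicates together, so a transcript is in or out of a list without replicate error, and spreads between these replicates may be technical. The read depth of the libraries is unknown, and a list names only transcripts with a peak. A missing peak therefore cannot be told apart from a transcript that was absent or rare in that cell type. In maDC and imDC the labels give replicate 1 another library kit (TruSeq) than replicate 2 (NEBNext Ultra), whereas both DCreg replicates were made with NEBNext Ultra, the kit that the methods of the study name.

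m6A is a methyl mark on adenosine that the Mettl3 and Mettl14 complex writes while the RNA is made, mostly at the central A of the sequence GGACU and its relatives. It is dense around stop codons and in long internal exons, it can be removed by the demethylases Alkbh5 and Fto, and proteins of the Ythdf and Ythdc families read it and direct decay, translation or nuclear processing of the transcript. Dendritic cells that sense LPS through the receptor TLR4 mature: they present antigen, display co-stimulatory molecules and secrete cytokines that direct T cells. Many of the transcripts that LPS induces encode cytokines, chemokines and products of the interferon response, and such transcripts are rare before the stimulus.

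Sites of GGACT, the DNA form of GGACU, are printed for peaks to which the results below refer, since they show the sequence under the enrichment. Each stretch is RefSeq transcript sequence on GRCm38 (mm10), written 5′ to 3′ on the strand of the transcript, with the motif in capitals and 8 bases on each side. Il12b is shown for a cytokine with adjoining motifs, Il12rb1 for a strong peak at the stop codon and Mtor for one in the 3′ UTR. Sac3d1 is shown for a peak with 4 motifs, Pcif1 for a member of the m6A machinery and Map3k14 for the NF-kB pathway. Gbp10 and Gbp6 are members whose sequences are alike.
Il12b, first site, chr11:44407816-44407836, plus strand: gtagaggtGGACTggactccc
Il12b, second site, chr11:44407821-44407841, plus strand: ggtggactGGACTcccgatgc
Il12rb1, chr8:70820719-70820739, plus strand: gctagggaGGACTgtccccgt
Mtor, first site, chr4:148556915-148556935, plus strand: cttccagtGGACTaaaaccat
Mtor, second site, chr4:148556940-148556960, plus strand: agacagttGGACTtgttaaat
Sac3d1, site 1, chr19:6116325-6116345, minus strand: ttgcctttGGACTtcatagaa
Sac3d1, site 2, chr19:6116294-6116314, minus strand: ccctggatGGACTccaggaag
Sac3d1, site 3, chr19:6116258-6116278, minus strand: aggcccatGGACTgaccttgg
Sac3d1, site 4, chr19:6116201-6116221, minus strand: ctgaggaaGGACTcccacccc
Pcif1, site before the stop codon, chr2:164891061-164891081, plus strand: aaggaccgGGACTcaggccgg
Map3k14, 3′ UTR, chr11:103220004-103220024, minus strand: cctagctgGGACTtctcctgg
Gbp10, first 3′ UTR site, chr5:105217055-105217075, minus strand: cttgtgggGGACTgtctcagg
Gbp6, first 3′ UTR site, chr5:105272852-105272872, minus strand: cttgtgggGGACTgtctcagg
Gbp10, second 3′ UTR site, chr5:105216994-105217014, minus strand: gttcctgtGGACTgaagaaac
Gbp6, second 3′ UTR site, chr5:105272791-105272811, minus strand: gttcctgtGGACTgaagaaac
The motifs of Il12b touch each other, and the stretches of Gbp10 and Gbp6 are identical, so reads from this place cannot be given to one of these genes.

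Enrichment is given as log2 of IP over input, each normalised by the authors to the median window of the same transcript, and a listed peak reached at least 1 in both replicates. The median over the peaks of maDC-alone transcripts was 1.68 for replicate 1 and 1.67 for replicate 2, against 1.95 and 2.16 for the 15667 peaks of the other 6815 maDC transcripts. The strongest peak of a maDC-alone transcript, ranked by its lower replicate value, had a median lower value of 1.47, against 2.14 for the other maDC transcripts. It reached 2 in 231 maDC-alone transcripts (18.7%), against 56.8% of the other maDC transcripts, and it reached 3 in 17, against 1183. It stayed under 1.5 in 651 maDC-alone transcripts (52.7%), against 18.9% of the others. The median lower value of the strongest peak was 1.25 in the 276 imDC-alone transcripts and 1.49 in the 613 DCreg-alone transcripts. These were not compared with the other transcripts of the imDC and DCreg lists. Membership moved with the threshold. With at least 1.5 in both replicates required in every list, 1359 transcripts of 7307 (18.6%) had a peak in maDC alone, of which 584 were among the 1235, and with at least 2 there were 1166 of 5241 (22.2%), or 28.4% of those with such a peak in maDC, of which 231 were among them. The remainder entered because their imDC or DCreg peaks lay under the stricter threshold.

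Across the 1649 peaks the replicates went together less than in the other maDC peaks. Pearson's r across peaks was 0.36 and Spearman's rho 0.33, against 0.65 and 0.60 for the other maDC peaks; peaks are not independent replicates, and the threshold cuts the range of both sets. The replicates of a maDC-alone peak differed by a median of 0.40, and by over 1 in 213 peaks (12.9%). Replicate 2 was the higher one in 51.2% of these peaks, against 62.9% of the other maDC peaks. Some values recurred exactly in another peak of the same replicate and list, and where they come from was not tested. Such values made up 30.3% of maDC-alone peaks in replicate 1 and 52.0% in replicate 2, against 14.8% and 27.0% of the other maDC peaks, and their part in the weaker enrichment was not tested. Without every peak with such a value in either replicate, 537 of the 1235 transcripts had a peak left.

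**Figure D1:**
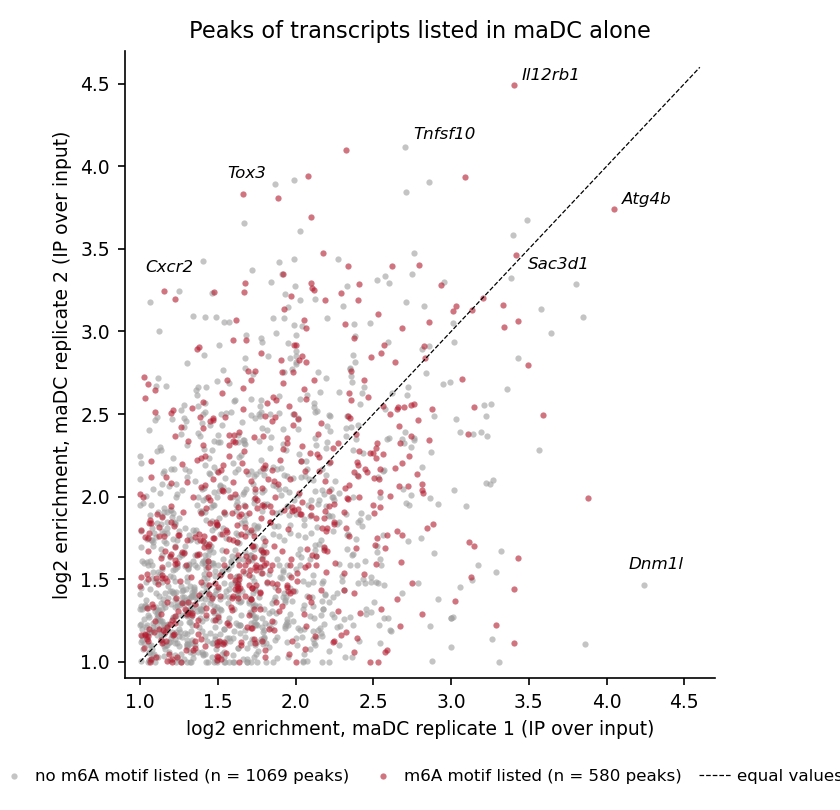
log2 enrichment of the 1649 peaks of maDC-alone transcripts in replicate 1 (x axis) and replicate 2 (y axis), with the 580 peaks that hold a listed GGACT in red and the 1069 without in grey. Most peaks lie below 2 in at least one replicate, and Il12rb1 and Atg4b stand at the upper right, while Dnm1l, Tox3 and Cxcr2 are high in one replicate alone.

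The strongest peaks by their lower replicate value lay on transcripts of varied function. Their values took part in the choice of the set and are given as a description. Atg4b, a protease that processes the Atg8 proteins of autophagy, had a 3′ UTR peak with 4.05 in replicate 1 and 3.74 in replicate 2, the highest lower value of all. Slc6a12, a betaine and GABA transporter, had 3.49 and 3.67 in its 3′ UTR. Sac3d1, named for its Sac3 domain, had 3.42 and 3.46 in the coding sequence, at the 4 motifs printed above (chr19:6116201-6116414). Il12rb1, a receptor chain shared by IL-12 and IL-23, had the highest single value of these transcripts, 4.49 in replicate 2, beside 3.40 in replicate 1, in a peak across its stop codon (chr8:70820670-70820869). A weaker peak lay directly behind it in the 3′ UTR. Rnf128, a ubiquitin ligase known from T cell anergy, had 3.40 and 3.58 at the start codon. Next came Rcl1, which acts in rRNA processing, with 3.38 and 3.32 in the 3′ UTR, and Yme1l1, a protease of the inner mitochondrial membrane, with 3.81 and 3.29 at the stop codon. The replicates of these peaks differed by over 1 in Il12rb1 alone.

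Among the next strongest was Mtor, the kinase that couples growth to nutrients, with 3.14 and 3.13 in the 3′ UTR at the pair of motifs printed above. Mtor held another peak at its start codon with 2.42 and 1.86 and a later 3′ UTR peak with 1.74 and 1.58. Gosr1, a SNARE of the Golgi, had 3.33 and 3.16, and Btbd10 3.58 and 3.14. The nucleoside transporter Slc28a2 had 3.09 and 3.94 in its 5′ UTR. Xndc1 had 3.20 and 3.20, in a peak that overlaps Xntrpc on the same strand and shares all of its sequence with it, so these reads cannot be given to one of the genes. At the other end, 29 of the 1235 transcripts had a strongest peak whose lower value was 1.00 to 2 decimals. Examples were Zfp386 with 1.00 and 1.41, Htra4 with 1.55 and 1.00, and Gtf2ird1 with 1.72 and 1.00. Just outside the set were the 1524 maDC transcripts with exactly 1 peak in the other lists, some of them at the threshold. Parvb had 1.32 and 1.48 in maDC, against an imDC peak of 1.00 and 1.34. Il1rn, which blocks IL-1 signalling, had 1.40 and 1.40 in maDC, against an imDC peak of 1.00 and 1.36. Pdk2 had 1.03 and 1.53 in maDC, against a DCreg peak of 1.00 and 1.45.

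Some peaks were strong in 1 replicate alone. Tox3, a nuclear HMG-box protein, had 1.66 in replicate 1 and 3.83 in replicate 2, and Cxcr2, the neutrophil chemokine receptor, had 1.15 and 3.24. Dnm1l, the GTPase that divides mitochondria, went the other way with 4.24 and 1.46, as did Minos1, a subunit of the cristae junction complex, with 3.86 and 1.11, and the ubiquitin ligase Herc3 with 3.31 and 1.00. These peaks had the largest differences between replicates in each direction, and Met, described below, was among them.

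Most maDC-alone transcripts had a single peak. They numbered 930 (75.3%, 95% exact Clopper-Pearson interval 72.8 to 77.7), against 37.2% of the other maDC transcripts (36.0 to 38.3), 94.6% of imDC-alone and 78.1% of DCreg-alone transcripts. These and all later intervals cover counting alone, and peaks of the same transcript are not independent. The maDC-alone transcripts were also shorter, with a median length of 2560.5 bases among the 1130 that passed a check against the reference sequence, against 3349 in the other maDC transcripts. The 305 with more than 1 peak had a median length of 3543.5 bases, and the median lower value of their strongest peak was 1.77, against 2269 bases and 1.40 for those with a single peak. Over the chromosomes, the share of maDC transcripts that was maDC-alone ran between 9.87% on chromosome 19 and 21.0% on the X chromosome.

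Tnfsf15, a TNF-family cytokine that co-stimulates T cells, carried the most peaks, 7. They covered the start codon at transcript positions 22 to 310 (1.35 and 1.08), the stop codon at 713 to 1059 (2.54 and 2.03) and much of the 3′ UTR, where the strongest, at 2505 to 2818, had 2.83 and 2.84. The weakest 3′ UTR peak of Tnfsf15, at 1412 to 1614, had 1.30 and 1.17. Wnk2, a kinase that regulates ion transport, had 5 peaks: one over the start codon with 3.03 and 3.15 and the others in the coding sequence, up to 2.87 and 2.53 at positions 5633 to 5921. Hivep2, a zinc finger protein that binds NF-kB sites, had 5 peaks in both UTRs, at the start codon and in the coding sequence, up to 2.19 and 2.09. Met, the receptor of hepatocyte growth factor, had 5, of which the strongest lay in the 3′ UTR with 2.31 and 3.15, while the peak in the coding sequence differed most between replicates, with 1.06 and 3.18. Gbp10, an interferon-induced GTPase, had 5, of which the 3 last ones shared all of their sequence with Gbp6 or a gene model.

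The motif GGACT was listed in 580 of the 1649 maDC-alone peaks (35.2%, 32.9 to 37.5), against 32.9% of the other maDC peaks (32.1 to 33.6), 27.7% of imDC-alone peaks (22.7 to 33.3) and 21.7% of DCreg-alone peaks (18.8 to 24.7). The interval of maDC-alone peaks overlapped that of the other maDC peaks and of imDC-alone peaks and lay above that of DCreg-alone peaks. GGACT was searched on the transcript strand alone. All 40978 peaks held it in 31.0%. On the 1130 maDC-alone transcripts that passed a check against the reference sequence, 32.4% of 1484 peaks held it. Consecutive windows of 173 bases, the median length of a maDC-alone peak, held it in 14.9% outside the peaks of these transcripts. Outside the peaks of the other listed transcripts that passed the check, 15.3% of such windows held it. Peaks of maDC-alone transcripts with more motifs were stronger: the median lower value was 1.37 for the 1069 peaks without GGACT, 1.52 for the 453 with 1, 1.62 for the 108 with 2 and 1.77 for the 17 with 3. The 2 peaks with 4 motifs were that of Sac3d1 and one at the stop codon of Ppfia3, a scaffold of synapses, with 1.16 and 2.12. The stop codon peaks of Pcif1 (3.50 and 2.80) and of Trim46, which organises axonal microtubules (2.34 and 2.63), held 3 each.

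Peaks of maDC-alone transcripts were then set against other maDC peaks of like strength. Where the lower value was under 1.5, GGACT was in 28.7% of 941 maDC-alone peaks (25.8 to 31.7), against 26.9% of the other maDC peaks (25.7 to 28.0). Between 1.5 and 2 it was in 42.2% of 455 maDC-alone peaks (37.6 to 46.9), against 31.9% (30.5 to 33.3), intervals that did not overlap. At 2 and above it was in 46.6% of 253 maDC-alone peaks (40.4 to 53.0), against 39.3% (38.0 to 40.6), where they overlapped by a small margin. The share of peaks with recurring values in both replicates differed too, at 23.5% under 1.5, 24.0% between 1.5 and 2 and 13.4% at 2 and above in maDC-alone peaks, against 11.8%, 8.49% and 3.00%, and its part in the motif shares was not tested. The base before GGACT was T in 34.7% and A in 32.3% of the 616 motifs with checked sequence, against 31.6% and 31.9% in the other maDC peaks, and G was the most frequent base after it in both, with 35.2% against 33.9%.

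A smaller share of maDC-alone peaks lay inside the coding sequence, and a larger share at its ends, than among the other maDC peaks. The coding sequence held 479 of them (29.0%, 26.9 to 31.3), against 39.0% of the other maDC peaks (38.3 to 39.8), 24.7% of imDC-alone and 44.1% of DCreg-alone peaks. The stop codon held 312 (18.9%, 17.1 to 20.9), against 14.3% (13.8 to 14.9), 10.3% and 11.2%. The start codon held 230 (13.9%, 12.3 to 15.7), against 10.8% (10.4 to 11.3), 24.3% and 5.92%. Peaks that began within the first 100 bases of the transcript made up 17.4% of maDC-alone peaks, against 13.4%, 31.8% and 8.19%. How much of the start codon share they account for was not tested. The 3′ UTR held 28.3% against 27.3% of the other maDC peaks, the 5′ UTR 6.67% against 7.45%, and non-coding RNA 3.09% against 1.05%. The stop codon was also the part with the most motifs: GGACT was in 42.3% of the maDC-alone peaks there, 37.0% of those in the coding sequence, 35.8% in the 3′ UTR, 28.2% in the 5′ UTR and 26.5% at the start codon. In every range of strength examined, the stop codon held more of the maDC-alone peaks than of the other maDC peaks, 16.8% against 11.0% under 1.5 and 24.9% against 17.8% at 2 and above. By the strongest peak of each transcript the stop codon differed less, with 21.2% of maDC-alone transcripts against 19.5% of the other maDC transcripts. The coding sequence held 26.5% of these strongest peaks against 34.1%. Shorter transcripts leave less room between the codons, as the lengths above show (median coding length 1194 bases, against 1527 in the other maDC transcripts), and the part of length in these shares was not tested.

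**Figure D2:**
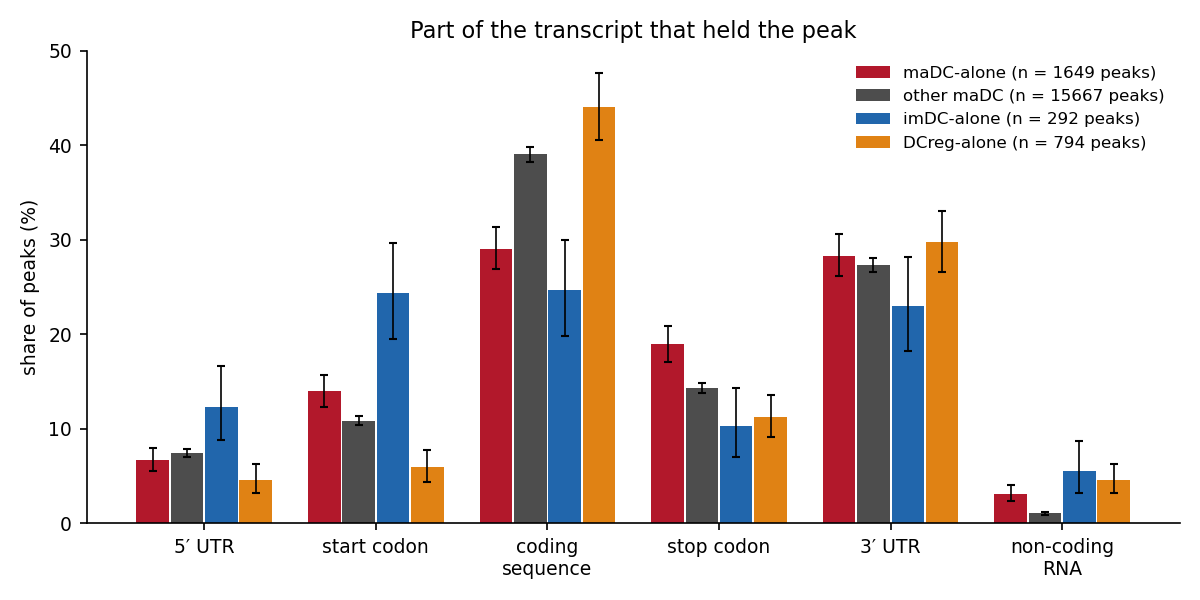
Share of peaks (y axis, percent) in each part of the transcript (x axis) for maDC-alone, other maDC, imDC-alone and DCreg-alone transcripts; error bars are 95% exact binomial intervals that cover counting alone. maDC-alone peaks have the highest share at the stop codon, 18.9%, and a smaller share in the coding sequence, 29.0%, than the other maDC peaks, 39.0%.

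Measured from the end of the coding sequence, 288 of 1433 maDC-alone peaks on checked coding transcripts (20.1%) had their centre within 100 bases of it, against 14.1% of the other maDC peaks. The fullest bin was that of the first 100 bases of the 3′ UTR in both, with 11.8% of maDC-alone peaks against 7.68%. Farther into the 3′ UTR the shares were low in both, with 1.47% of maDC-alone peaks against 1.95% in the bin of 400 to 500 bases. The median 3′ UTR was 899.5 bases long, against 1250 in the other maDC transcripts.

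**Figure D3:**
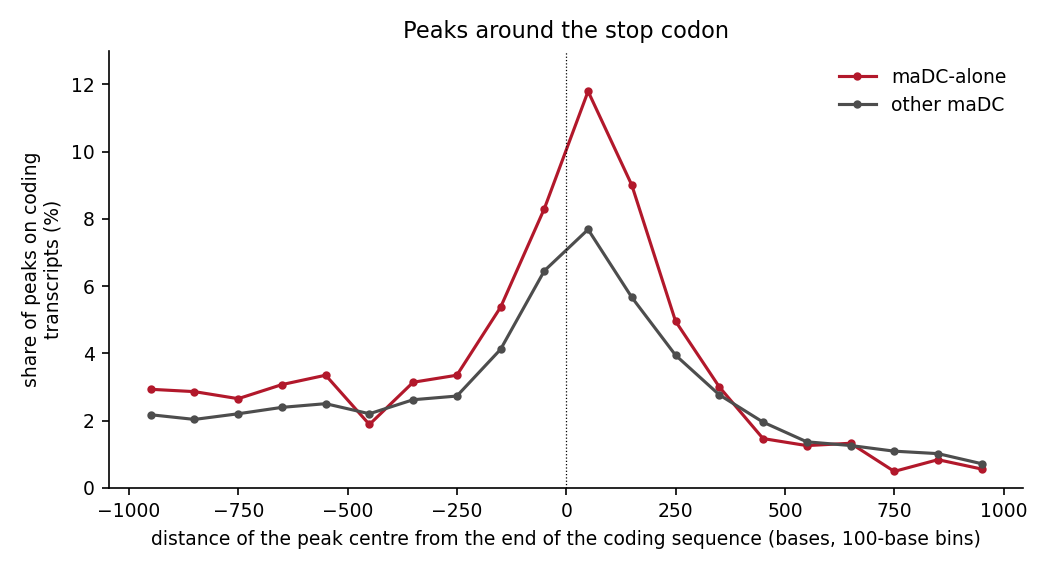
Share of peaks on coding transcripts (y axis, percent) by the distance of the peak centre from the end of the coding sequence (x axis, 100-base bins, positive in the 3′ UTR) for maDC-alone and other maDC transcripts. Both lines are highest in the first 100 bases of the 3′ UTR, at 11.8% for maDC-alone peaks and 7.68% for the other maDC peaks.

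Gene lists were counted next, with 13.5% of all listed transcripts as the share over everything, 18.6% at a threshold of 1.5 and 22.2% at a threshold of 2 in every list. For gene lists given below by a count alone, the interval of the share held 13.5%. Lists and members were chosen with results of these data known, and list membership is what chose the transcripts, so the counts below describe the set and are not evidence about a pathway. Among cytokines, 10 of 22 listed transcripts were maDC-alone (45.5%, 24.4 to 67.8). They were Tnfsf15, Tnfsf10, Tgfb2, Tnfsf13b, Il23a, Il12b, Il6, Il1b, Il15 and Il1f9. Tnfsf10, the death ligand TRAIL, had 2.70 in replicate 1 and 4.11 in replicate 2 at its stop codon. Tgfb2 had 2.10 and 3.29 in the 3′ UTR, and Tnfsf13b, the B cell survival factor BAFF, had 2.18 and 2.01 at the stop codon. Il23a encodes the p19 subunit of IL-23 and had 2.28 and 1.85. Il12b, the p40 subunit that IL-23 and IL-12 share, had a peak over its start codon with 1.61 and 2.02, at the adjoining motifs printed above, and a 3′ UTR peak with 1.21 and 1.27. Il6, the inflammatory and B cell cytokine, had 2.11 and 1.34 at positions 682 to 836 (chr5:30019516-30019670). Il1b, which the inflammasome activates, had 2.57 and 1.06 at the stop codon, so replicate 2 was near the threshold. Il15 and Il1f9 (IL-36 gamma) were weak, with 1.01 and 1.70 and with 1.01 and 1.12. At a threshold of 1.5 in every list, 8 of 14 cytokines were in maDC alone (57.1%), and at 2, 4 of 9 (44.4%).

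Of 43 cytokine receptors, 5 were maDC-alone (11.6%, 3.89 to 25.1), an interval that holds the 13.5% over everything. All were above the median of the set in at least 1 replicate except Il15ra. Beside Il12rb1, Ifngr1, the ligand-binding chain of the interferon gamma receptor, had 2.76 and 2.36 at the stop codon, and Il1r1, the signalling receptor of IL-1, had 2.67 and 2.32 in the 3′ UTR. Il31ra had 2.37 and 1.42, and Il15ra, which presents IL-15 to neighbouring cells, had 1.43 and 1.56. Ligand and receptor were both in the set for IL-1 beta (Il1b, Il1r1), IL-15 (Il15, Il15ra) and IL-12 (Il12b, Il12rb1). The pairs were picked out after the values were seen, and the share of receptors was not above that over everything.

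Of 20 chemokines and chemokine receptors, 4 were maDC-alone (20%, 5.73 to 43.7), an interval that holds the 13.5% over everything. Cxcl9 and Cxcl10, which draw activated T cells through Cxcr3, had 2.11 and 2.10 and 2.47 and 1.88, both in the 3′ UTR. Cxcl2, which draws neutrophils through Cxcr2, had 2.01 and 2.41 in the first 115 bases, of which 48.5% of the 50-base stretches are also found in Cxcl3. Cxcr2 itself was among the peaks that differed most between replicates. Of 27 co-stimulatory and co-inhibitory molecules, 6 were maDC-alone (22.2%, 8.62 to 42.3), an interval that also holds 13.5%. At a threshold of 2, 1 of 16 was (6.25%), against 22.2% over everything. Btla, an inhibitory receptor of lymphocytes and dendritic cells, had 2.03 and 3.61, and Tnfrsf14, its ligand, had 1.47 and 2.03. Slamf1 had 1.84 and 1.85 with 2 motifs in its 3′ UTR peak, Slamf8 1.48 and 1.75, and Lgals9 (galectin-9) 1.46 and 2.28. Tnfrsf18, the receptor GITR, lay at the threshold with 1.00 and 1.34.

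**Figure D4:**
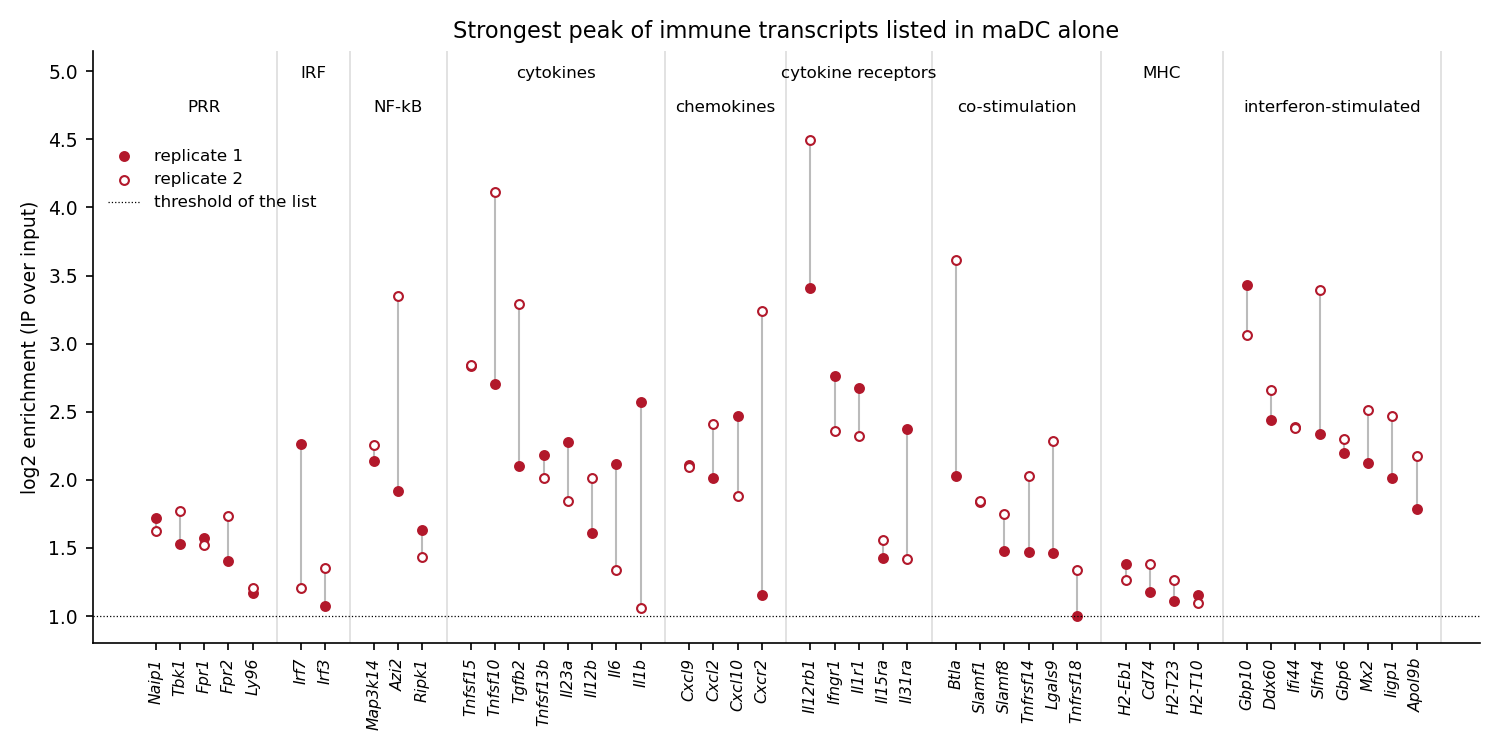
log2 enrichment in replicate 1 (filled) and replicate 2 (open) of the strongest peak of maDC-alone immune transcripts, by gene list (up to 8 per list; y axis, log2 of IP over input); the dotted line is the threshold of 1. Il12rb1, Tnfsf10 and Btla reach the highest values, 4.49, 4.11 and 3.61 in replicate 2, while the 4 MHC transcripts all lie under 1.5.

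Of 53 pattern recognition receptors and adaptors, which sense LPS and other microbial products, 5 were maDC-alone (9.43%, 3.13 to 20.7), an interval that holds the share over everything, and their strongest peaks stayed under 2 in both replicates. Tbk1, the kinase that activates Irf3, had 1.53 and 1.77 in the 3′ UTR, and Ly96, the MD-2 co-receptor that binds LPS for TLR4, had 1.17 and 1.21 at the start codon. The formyl peptide receptors Fpr1 and Fpr2 had 1.58 and 1.52 and 1.40 and 1.73, and 78.0% of the stretches under the peak of Fpr2 are also in Fpr3 or a gene model. Naip1, a sensor of bacterial secretion systems, had 4 peaks, the strongest with 1.72 and 1.63, but 96.2% of the stretches under that peak are also in Naip3, Naip5 or Naip6. At a threshold of 1.5 in all lists, 10 of 46 pattern recognition transcripts were in maDC alone (21.7%), against 18.6% over everything. At 2, 6 of 32 were (18.75%), against 22.2%. Of 7 interferon regulatory factors with a peak, Irf7 (2.27 and 1.21, start codon) and Irf3 (1.08 and 1.35, with 3 motifs in the coding sequence) were maDC-alone. The share of interferon regulatory factors was 28.6% (3.67 to 71.0), an interval that holds the 13.5% over everything. Neither Irf7 nor Irf3 had a peak that reached 1.5 in both replicates.

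In the NF-kB pathway, 4 of 44 transcripts were maDC-alone (9.09%, 2.53 to 21.7), against 13.5% over everything. At a threshold of 1.5, 9 of 38 were (23.7%), against 18.6%, and at 2, 6 of 27 (22.2%), against 22.2%. Map3k14, the kinase NIK of the non-canonical pathway, had 2.14 and 2.25 at 3 motifs of its 3′ UTR, one of which is printed above, and 1.56 and 1.79 in the coding sequence. Azi2, an adaptor of Tbk1, had 1.92 and 3.35 at the stop codon. Ripk1, a kinase downstream of the TNF receptor, had 1.63 and 1.44. Of the JAK kinases and STAT factors, 0 of 10 were maDC-alone, and 1 of 10 at a threshold of 1.5. Among 40 negative regulators of TLR and cytokine signaling there were 2, Dusp2, a phosphatase of MAP kinases, with 1.78 and 2.42, and Lgals9. The share of negative regulators was 5% (0.611 to 16.9), an interval that holds the 13.5% over everything. Of 43 apoptosis transcripts, 3 were maDC-alone: Bcl2l14 (2.09 and 2.26), the TRAIL receptor Tnfrsf10b (1.42 and 1.38) and Bcl2a1b (1.30 and 1.11), whose peak is shared in full with other Bcl2a1 genes or a gene model. These 3 were 6.98% of the apoptosis list (1.46 to 19.1), an interval that holds the 13.5% over everything. At a threshold of 1.5 this list gave 8 of 34 (23.5%), against 18.6% over everything, and at 2, 6 of 26 (23.1%), against 22.2%. Tnfrsf10b is the receptor of Tnfsf10, described above.

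The maDC-alone transcripts of antigen presentation had weak peaks. Of 40 MHC class I and class II transcripts, 4 were maDC-alone (10.0%, 2.79 to 23.7), with a median lower value of 1.14 for the strongest peak and no GGACT in any of their 5 peaks. H2-Eb1, a class II beta chain, had 1.38 and 1.26, and Cd74, the invariant chain that guides class II molecules, had 1.18 and 1.39. The non-classical class I genes H2-T23 and H2-T10 had 1.11 and 1.26 and 1.15 and 1.10. All of these values lay under 1.5.

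Of 83 interferon-stimulated transcripts, 20 were maDC-alone (24.1%, 15.4 to 34.7), against 13.5% over everything. At a threshold of 1.5, 15 of 65 were (23.1%), against 18.6%, and at 2, 15 of 53 (28.3%), against 22.2%. Gbp10 led with 3.43 and 3.06, followed by the helicase Ddx60 (2.44 and 2.66) and Ifi44 (2.39 and 2.38). Slfn4, a schlafen of myeloid cells, had 4 peaks in its coding sequence, with 2.34 and 3.40 at the strongest. All 4 were higher in replicate 2. The interferon-induced GTPases Mx2 and Iigp1 had 2.13 and 2.51 and 2.01 and 2.47, and Gbp6 had 2.19 and 2.30 at its start codon. Apol9b had 1.79 and 2.17 in a 3′ UTR peak with 3 motifs, of which 34.3% of the stretches are also in Apol9a, another member. The remaining 12 members had lower values between 1.01 for Ifitm2 and 1.74 for Apol9a. GGACT was in 14 of the 36 peaks of the list (38.9%), and none of these peaks had recurring values in both replicates, against 22.1% of all maDC-alone peaks. The Gbp, Slfn, Apol9 and Mx genes each form clusters of similar genes. Under the strongest peaks of Gbp10 and Gbp6, 100% and 95.6% of the stretches are also in other Gbp genes or a gene model, while those of Slfn4 and Slfn2 shared none.

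**Figure D5:**
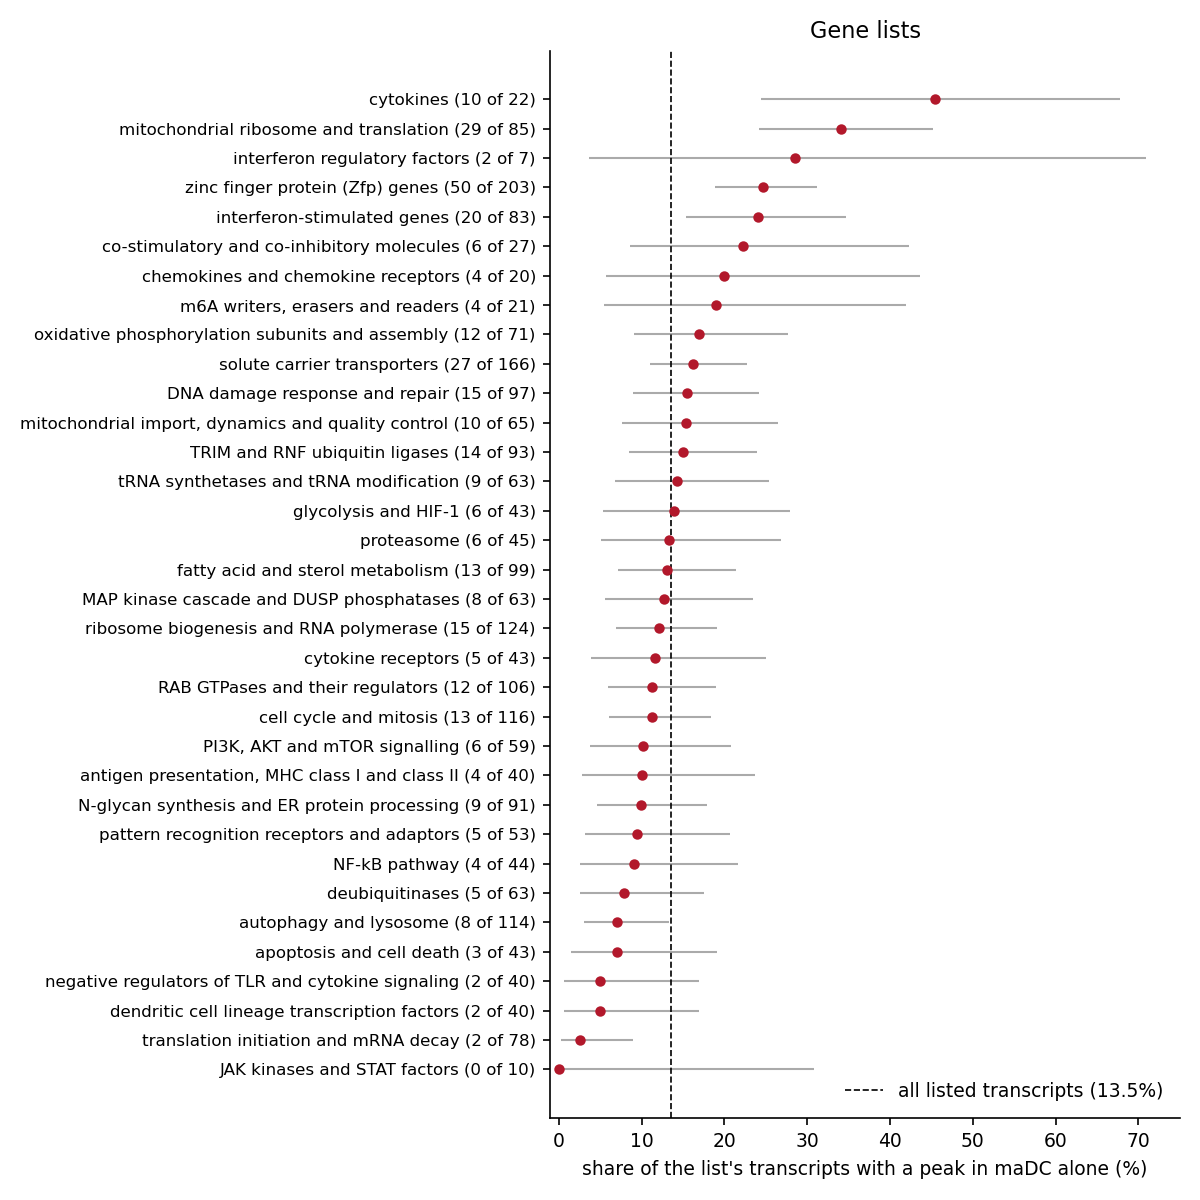
Share of each gene list's transcripts with a peak in any list that had it in maDC alone (x axis, percent), with the counts beside the list name and 95% exact binomial intervals that cover counting alone; the dashed line is the share over all listed transcripts, 13.5%. Cytokines (45.5%) and the mitochondrial ribosome and translation (34.1%) have the highest shares, and the JAK kinases and STAT factors (0 of 10) the lowest.

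Outside the immune lists, mitochondrial ribosome and translation transcripts gave 29 members of 85 (34.1%, 24.2 to 45.2), against 13.5% over everything. At a threshold of 1.5 they gave 25 of 56 (44.6%), against 18.6%, and at 2, 16 of 29 (55.2%), against 22.2%. The strongest peaks of the 29 members had a median lower value of 1.36. Of these 29 peaks, 12 lay at the stop codon (41.4%), against 21.2% over all maDC-alone transcripts. The stop codon held 46.8% of the strongest peaks in the 47 mitochondrial translation transcripts that maDC shared with another type. Rpusd3, a pseudouridine synthase of the mitochondrial rRNA, had 2.33 and 2.49, and Mtrf1l, a release factor, had 2.15 and 2.16. The elongation factor Gfm1 had 2.03 and 2.59, and Gfm2, which recycles mitochondrial ribosomes, had 2.05 and 1.83. Among the others were 11 ribosomal proteins of the large subunit and 3 of the small subunit, named Mrpl and Mrps. Oxidative phosphorylation gave 12 of 71 (16.9%, 9.05 to 27.7), and here 7 of the 12 strongest peaks lay at the start codon and 1 of 14 peaks held GGACT. In the 46 oxidative phosphorylation transcripts that maDC shared with another type, 19 strongest peaks lay at the start codon, more than in any other part. Of their 58 peaks, 19 held GGACT. The leading maDC-alone members were Tmem186 (2.71 and 3.85) and Foxred1 (1.92 and 2.69), both assembly factors of complex I. Mitochondrial import, dynamics and quality control gave 10 of 65, led by Yme1l1, by the transcription and rRNA factor Tfb1m (2.35 and 2.77) and by Fech, an enzyme of haem synthesis (2.20 and 3.08).

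Zinc finger protein (Zfp) genes gave 50 members of 203 (24.6%, 18.9 to 31.2), against 13.5% over everything. At a threshold of 1.5 they gave 37 of 159 (23.3%), against 18.6%. At 2 they gave 21 of 106 (19.8%), under the 22.2% over everything at that threshold. Many of them encode KRAB repressors with long arrays of zinc fingers in the last exon. The strongest peak lay in the coding sequence in 33 of the 50 (66.0%), against 26.5% over all maDC-alone transcripts and 55.4% in the 139 Zfp transcripts that maDC shared with another type. GGACT was in 16 of their 71 peaks (22.5%). Recurring values in both replicates made up 43.7% of these peaks against 22.1% of all maDC-alone peaks, and their part in the count was not tested. Zfp456 (2.60 and 3.29), Zfp518b (2.89 and 2.49) and Zfp790 (2.70 and 2.39) led the list, and the peak of Zfp456 overlaps Gm17039 on the opposite strand, from which reads could not be told apart, as no source states that strand was kept.

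Among the m6A machinery itself, 4 of 21 transcripts were maDC-alone (interval of the share 5.45% to 41.9%). Pcif1, which methylates the adenosine next to the cap, had the strongest of these peaks, across its stop codon. Igf2bp2, which binds and stabilises methylated transcripts, had 1.98 and 2.12, and Zcchc4, which methylates the rRNA of the large ribosomal subunit, had 2.15 and 1.98. The reader Ythdc2 had 1.42 and 1.61 at its start codon. Only 1 of the 5 peaks of these transcripts, that of Pcif1, held GGACT. Recurring values in both replicates made up 40% of these 5 peaks, against 22.1% of all maDC-alone peaks, and their part was not tested.

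Growth and metabolism lists followed. PI3K, AKT and mTOR signalling gave 6 of 59 (10.2%, 3.82 to 20.8), and beside Mtor these included Nprl3 (2.17 and 2.17, a peak that overlaps Mpg on the opposite strand) and Depdc5 (2.34 and 2.07), which belong to the complex that restrains mTORC1 when amino acids are scarce, and Lamtor5 (3.10 and 1.94), a part of the complex that anchors mTORC1 to lysosomes. At thresholds of 1.5 and 2 this list gave 12 of 54 (22.2%) and 13 of 45 (28.9%), against 18.6% and 22.2% over everything. Glycolysis and HIF-1 gave 6 of 43, led by the prolyl hydroxylase Egln3 (2.86 and 3.06) and followed by Pdk3 (1.82 and 2.85) and the lactate transporter Slc16a1, with 4 peaks up to 1.77 and 2.55. Solute carriers gave 27 of 166 (16.3%, 11.0 to 22.8), with the iron transporter Slc11a2 (2.71 and 2.62) and the zinc transporter Slc39a4 (2.35 and 2.48) next after the carriers named above. Fatty acid and sterol metabolism gave 13 of 99, among them Nsdhl of cholesterol synthesis (1.49 and 1.83) and the sterol receptor Nr1h3 (2.40 and 1.47). Autophagy and lysosome gave 8 of 114 (7.02%, 3.08 to 13.4), against 13.5% over everything. At a threshold of 1.5 it gave 15 of 97 (15.5%), against 18.6%, and at 2, 14 of 80 (17.5%), against 22.2%. The 8 were led by Atg4b and by its paralogue Atg4a (2.39 and 2.21), of whose peak 84.8% is shared with a pseudogene.

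Lists of nuclear and housekeeping functions were counted in the same way. DNA damage response and repair gave 15 of 97 (15.5%, 8.92 to 24.2), with Xpa, which verifies damage in excision repair, at 2.54 and 2.0, and Ercc3 at 2.86 and 2.91. Ribosome biogenesis and RNA polymerase gave 15 of 124, led by Rcl1 and by the RNA polymerase I subunit Polr1e (3.15 and 2.54). Cell cycle and mitosis gave 13 of 116, with the kinesin Kif11 (1.78 and 1.68) and the kinetochore protein Ska2 (1.89 and 1.76). Recurring values in both replicates made up 47.1% of the 17 cell cycle peaks, against 22.1% of all maDC-alone peaks, and their part was not tested. tRNA synthetases and tRNA modification gave 9 of 63, led by the methyltransferase Nsun6 (2.75 and 3.35), proteasome transcripts 6 of 45, led by Psmb5 (2.57 and 2.26), whose peak is shared in part with a pseudogene, and N-glycan synthesis and ER protein processing 9 of 91, led by the oxidase Ero1l (2.32 and 3.05). Translation initiation and mRNA decay gave 2 of 78 (2.56%, 0.312 to 8.96), against 13.5% over everything. It gave 6 of 71 (8.45%) at a threshold of 1.5, against 18.6%, and 8 of 58 (13.8%) at 2, against 22.2%. One of the 2 was Cnot4, a ubiquitin ligase that binds the deadenylase complex, with 3.85 and 3.09.

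Regulators of signalling and traffic completed the lists. TRIM and RNF ubiquitin ligases gave 14 of 93, led by Rnf128, and deubiquitinases 5 of 63, which included Usp40 (1.82 and 1.96), Yod1 (2.06 and 1.76, over Pfkfb2 on the opposite strand) and Usp6nl, which the name pattern matched although it is a RAB regulator. RAB GTPases and their regulators gave 12 of 106, with Rab3ip (2.22 and 2.49) and Rab18 (2.24 and 2.0) first. The MAP kinase cascade and DUSP phosphatases gave 8 of 63, with Mapkapk3 (2.48 and 3.05) and Map3k6 (2.35 and 2.58) ahead of Map3k14. In the list named for dendritic cell lineage transcription factors, 2 of 40 were maDC-alone (5%, 0.611 to 16.9), an interval that holds the 13.5% over everything. They were Cebpe (2.36 and 2.42) and Nr4a2 (1.67 and 2.34), both strongest at the stop codon. The name is that of the list, and a role of Cebpe or Nr4a2 in this lineage was not tested.

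Markers of cell types were counted to see which cells the set could reflect. All 14 dendritic cell markers with a peak in any list had one in maDC, of which Cd74 alone was maDC-alone, and of 13 maturation markers, all with a maDC peak, Il12b alone was. Of 12 macrophage markers with a peak in any list, 9 had one in maDC, and Fcgr1 (2.13 and 2.52) and Vcam1 (1.29 and 1.70) were maDC-alone. Of 9 spleen endothelial and stromal markers with a peak, 4 had one in maDC and 7 in DCreg, and Pecam1 (1.35 and 1.45) was maDC-alone. Of 8 neutrophil markers, 6 had a maDC peak and Cxcr2 was maDC-alone, while no lymphocyte marker had a peak in any list. Peaks measure methylation relative to the rest of the transcript and not expression, so these counts say only that reads were present, and the part of other cells in the set was not tested.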

How the data were processed

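m6A was profiled by meRIP-seq in imDC, maDC and DCreg, with 2 replicates per type, grouped as the sample labels name them. The authors used TopHat2 2.0.14 for alignment to mm10. The authors extended each read to 150 bp, counted reads on the longest isoform of a gene in windows of 100 bp every 10 bp, and called a window at an FDR under 1%, computed by the authors with edgeR (no version named in the sources), with log2 enrichment of 1 or more in each replicate. The deposited values are log2 ratios of IP over input, normalised within each transcript, and ratios hide the depth, so precision is given only as counting intervals. Counting stated no strand. That the replicate columns follow the order of the labels was assumed.

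Peaks were joined by RefSeq transcript with Python 3.11.15, pandas 2.3.3, NumPy 2.4.6, SciPy 1.17.1 and pysam 0.24.0, and drawn with matplotlib 3.10.9. The 1235 transcripts were all found in the RefSeq annotation of GRCm38, and 16 without a symbol in the list were named from it. Genome positions, lengths and distances were given for the 1130 transcripts (91.5%) whose reference sequence held GGACT in the peaks only where the authors list it. Peaks were checked for 50-base stretches shared with transcripts of other genes (GENCODE vM21), 50% or more of them in 83 maDC-alone peaks (5.59%), and for exons of other genes on the opposite strand (41 peaks, 2.76%) or the same strand (16 peaks). Shares carry exact Clopper-Pearson 95% intervals, and no test was run, since peaks are not replicates. The functions that find the set and the intervals were tested on simulated lists.

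The transcripts and the 34 gene and 6 marker lists were chosen with earlier results of these data known. Named genes were the 12 strongest peaks, the 5 transcripts with the most peaks, up to 8 members of each immune list and up to 5 of each other list, all by the lower replicate value, the 4 peaks with the most GGACT, the 3 with the largest replicate difference each way, 3 just inside and 3 just outside the threshold, and members that the study names. Models without a gene name were skipped, and a few genes that the rule names are not reported here. Alternatives were stricter thresholds, single replicates, gene symbols, coding transcripts and the strongest peak per transcript.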

Additional observations from a re-analysis of the deposited data

How the results depend on the processing

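The number of maDC-alone transcripts stayed within 1.5 times of 1235 when the threshold was 1.5 (1359) or 2 (1166) in all lists, when peaks were joined by gene symbol (1234), for protein-coding transcripts (1193), and from 1 replicate at a time with the threshold raised to 1.5 in that replicate (1309 to 1316). It fell to 231 where a maDC peak of at least 2 was required against any peak elsewhere, fewer by construction. Of 2 alternatives chosen after seeing the data, leaving out peaks shared with or overlapping another gene kept 1146, and leaving out peaks with a recurring value kept 537. The median of the replicate means was 1.70, against 1.67 to 1.68 from single replicates, 1.78 for the strongest peak per transcript and 1.43 for the lower replicate.

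The GGACT share of 35.2% was 35.3% by a search of the reference sequence. It was 46.6% for peaks of at least 2, 39.1% to 40.7% for peaks of at least 1.5 in 1 replicate, 41.0% over transcripts and 38.1% without recurring values. For peaks of at least 2 the shares were 4.74% in the 5′ UTR, 9.49% at the start codon, 26.5% in the coding sequence, 24.9% at the stop codon, 32.8% in the 3′ UTR and 1.58% in non-coding RNA. For peaks of at least 1.5 in 1 replicate the start codon held 10.9% to 13.2% and the coding sequence 25.4% to 31.0%. With the strongest peak per transcript the coding sequence held 26.5% and the stop codon 21.2%, against 34.1% and 19.5% in the other maDC transcripts. Without recurring values the 5′ UTR held 4.42%, the coding sequence 26.2% and the stop codon 23.9%. Transcripts with 1 peak made up 91.3% at a threshold of 2 and 80.1% to 81.0% for peaks of at least 1.5 in 1 replicate. At the threshold of the lists every peak passes in each replicate, so these single-replicate values differ from the main ones through the raised threshold. The cause of the other shifts was not tested. Members in any gene list numbered 391 and 311 at thresholds of 1.5 and 2, and 18 of the 40 list counts moved by over 1.5 times at each. No paired analysis was possible because the lists were called on both replicates jointly and no result comes from a test. Depth is unknown, so a missing peak sets no limit on methylation.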
